A study of Mus musculus with 32 samples.

Results

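The replication-dependent histone genes encode the core histones H2A, H2B, H3 and H4 and the linker histone H1 that package newly copied DNA. They were taken here as the genes whose symbol starts with Hist1h, Hist2h, Hist3h or Hist4h and that had 50 or more UMIs (unique molecular identifiers, each marking a captured RNA molecule) summed over the 32 libraries. Of 32285 genes in the files, 67 carried such a symbol and 62 passed the threshold. The 62 members comprise 6 H1, 16 H2A, 15 H2B, 12 H3 and 13 H4 genes. By GENCODE M21 (build GRCm38), 50 of them lie on chromosome 13, 9 on chromosome 3, 2 on chromosome 11 and 1 on chromosome 6. Just inside the threshold were Hist2h2aa2 (63 UMIs), Hist1h1t (80 UMIs) and Hist1h2ao (131 UMIs). Just outside it were Hist2h2aa1 (32 UMIs), Hist1h2br (15 UMIs), Hist1h2aa (14 UMIs), Hist1h2bq (7 UMIs) and Hist1h2ba (1 UMI).

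Single cells came from the dorsal telencephalon, the part of the embryonic forebrain that forms the cerebral cortex, of C57BL/6J mouse embryos that were wild type (WT) or Chd8+/- (called het below). Chd8 encodes a chromatin remodelling protein, and the labels do not say how its allele was made. Each genotype was sampled at 4 ages, namely E12.5, then E14.5, then E16.0 and last E17.5. Each age and genotype had 4 libraries, of which M1 and M2 came from male and F1 and F2 from female embryos, which gave 8 groups of 4. A WT and a het embryo matched for litter and sex share a name at each stage, and medial tissue had been left out at dissection.

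Histone genes of this class are transcribed in bursts in S phase, under the coactivator Npat in nuclear histone locus bodies. Their mRNAs usually end in a stem-loop rather than in a poly(A) tail. The stem-loop binding protein Slbp and the U7 particle, which holds Lsm10 and Lsm11, direct the cleavage that forms this end, and the mRNAs are degraded when replication stops. Some of these genes can also be polyadenylated downstream of the stem-loop, in particular in cells that have left the cycle. The libraries were made from poly(A) RNA with 3′ droplet chemistry, so the values below are levels of captured RNA and not of all histone mRNA. The order of genes in them is the order of recovered UMIs and need not be that of transcription.

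The annotated ends differed between members. In GENCODE M21, 44 members had the stem-loop within the annotated transcript, and 15 had a polyadenylation signal (AATAAA or ATTAAA) within 50 bases of their annotated 3′ end. These 15 members held 70.2% of member UMIs and included 5 of the 12 members with the highest mean level. The stem-loops of 6 members described below are printed to show how the families differ, read from GRCm38 on the strand of the gene, with the stem and loop in capitals.

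Hist3h2ba: aaaGGCTCTTTTCAGAGCCacct
Hist1h1e: aaaGGCTCTTTTCAGAGCCaccc
Hist1h2ac: aaaGGCTCTTTTCAGAGCCccca
Hist1h3c: aaaGGCTCTTTTAAGAGCCacct
Hist1h4d: aaaGGCCCTTTTCAGGGCCacta
Hist1h4i: aaaGGCCCTTTTTAGGGCCacca

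The core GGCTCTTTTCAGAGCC occurred in 24 members of the H1, H2A, H2B and H3 families, and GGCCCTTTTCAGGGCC in 7 members, each of them an H4 gene. None of the 12 H4 genes with an annotated stem-loop shared its core with any of the 32 other members that had one.

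Sequence upstream of the start also set the H4 genes apart. Of the 62 members, 56 had a promoter in the RefSeq table of GRCm38.p6, taken as 250 bases before to 50 after the start. The CCAAT box, a site for the factor NF-Y, was searched on both strands and stood in 83.9% of these 56 promoters and in 37.9% of all 27025 promoters. It was present in 100% of the H1, H2A, H2B and H3 promoters and in 25% of the 12 H4 promoters. The TATA motif TATAAA was found in 57.1% of member promoters and 14.2% of all promoters. The octamer ATTTGCAT, bound by Oct1, was found in 40% of the H2A and 38.5% of the H2B promoters, in 0% of the H1, H3 and H4 promoters, and in 1.75% of all promoters. A match describes the letters only and is not a tested binding site.

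The 250 bases upstream of 4 members with contrasting levels are printed next, because these members are described in the comparisons of cell classes and stages. They run in the direction of transcription, with the CCAAT box, the TATA motif and the octamer on either strand in capitals. They are chr11:58948661-58948910 (plus strand) for Hist3h2ba, chr13:21780626-21780875 (minus strand) for Hist1h1b, chr13:22041363-22041612 (minus strand) for Hist1h4i and chr13:23683960-23684209 (minus strand) for Hist1h2ac. The last of these covers most of the space between Hist1h2ac and Hist1h2bc, which are transcribed away from each other.

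Hist3h2ba: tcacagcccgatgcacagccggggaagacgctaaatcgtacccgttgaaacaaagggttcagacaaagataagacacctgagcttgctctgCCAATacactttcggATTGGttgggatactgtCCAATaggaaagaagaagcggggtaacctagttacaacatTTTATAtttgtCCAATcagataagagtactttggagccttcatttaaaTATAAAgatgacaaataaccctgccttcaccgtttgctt
Hist1h1b: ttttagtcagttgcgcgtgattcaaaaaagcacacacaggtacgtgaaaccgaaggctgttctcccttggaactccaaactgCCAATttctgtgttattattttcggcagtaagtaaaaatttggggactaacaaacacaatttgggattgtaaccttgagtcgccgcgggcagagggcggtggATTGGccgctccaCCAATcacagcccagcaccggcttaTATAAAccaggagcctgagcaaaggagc
Hist1h4i: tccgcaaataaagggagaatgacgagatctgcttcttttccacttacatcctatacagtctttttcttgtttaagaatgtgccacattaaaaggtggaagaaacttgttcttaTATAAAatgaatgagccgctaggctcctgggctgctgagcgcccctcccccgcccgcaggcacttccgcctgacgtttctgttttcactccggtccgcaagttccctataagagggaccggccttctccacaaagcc
Hist1h2ac: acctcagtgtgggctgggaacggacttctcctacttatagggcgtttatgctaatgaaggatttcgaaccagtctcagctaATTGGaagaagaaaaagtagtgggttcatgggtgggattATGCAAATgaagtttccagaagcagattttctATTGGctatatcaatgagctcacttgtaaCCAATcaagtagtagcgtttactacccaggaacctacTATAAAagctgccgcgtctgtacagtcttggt

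The 300-base promoter of Hist3h2ba held 4 CCAAT and 2 TATAAA matches, that of Hist1h1b 3 and 1, that of Hist1h4i 0 and 1, and that of Hist1h2ac 3 and 1. Hist1h2ac also held 1 ATTTGCAT match. Members stood in 9 divergent pairs with at most 301 bases between their starts, and in each of the 9 an H2A gene faced an H2B gene.

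Libraries held between 14710694 and 66499864 UMIs, and 138226 cells were kept. Chd8 itself, the gene that defines the genotype, ran from 39.3 to 82.7 UMIs per 1000000 UMIs of the library (CPM) in WT and from 19.6 to 71.1 CPM in het libraries. WT was the higher in 15 of 16 pairs, the exception being F1 at E17.5 with 60.8 CPM in WT and 71.1 CPM in het. Averaged over stages the log2 difference was -0.28 ± 0.07 (SE), which did not pass the threshold of an adjusted p under 0.05 (0.12, edgeR's quasi-likelihood test with Benjamini-Hochberg adjustment). The deposited labels carry a code for each library, whose meaning they do not give. No code start was shared between stages, so stage and code cannot be told apart, while both embryos of a pair shared it in 16 of 16 pairs. Marker genes of radial glia, intermediate progenitors and excitatory neurons, fitting the labelled tissue, were detected in each group, and no marker list had a gene at 0. Genes of red blood cells summed to between 960.5 and 18680 CPM per library, and their part in the results was not tested. Of 131914 different barcodes, 12378 occurred in 2 or more libraries, and the largest share of barcodes common to a pair of libraries was 1.3%.

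Together the members took 0.145% of UMIs in the retained cells, and 3 members took 64.5% of that. The H2B gene Hist3h2ba (ENSMUSG00000056895, chr11:58948920-58949533) was the highest at a mean of 596 CPM, with a lowest library of 359, a median of 614 and a highest of 862 CPM. Its neighbour Hist3h2a (chr11:58954685-58956830, overlapping Trim17 on its own strand and Gm44313 on the other) ran from 88.0 through a median of 207 to 392.4 CPM. The H2B gene Hist1h2bc (chr13:23684199-23692908) ran from 70.9 through 139.6 to 422 CPM. Next in mean level came the linker histone gene Hist1h1c at 86.6 CPM, the H4 gene Hist1h4i (ENSMUSG00000060639) at 75.0 CPM and the H2A genes Hist1h2ac at 50.6 CPM and Hist1h2ae (ENSMUSG00000069272) at 48.6 CPM. Hist1h1e (ENSMUSG00000051627) at 32.5 CPM, Hist1h1b (ENSMUSG00000058773) at 29.0 CPM, Hist1h4d at 25.3 CPM, Hist1h2ag at 16.9 CPM and Hist1h3d at 13.5 CPM completed the 12 highest. Of the 62 members, 47 averaged 1 CPM or more and 14 averaged 10 CPM or more. The remaining H1 genes were Hist1h1d at 8.35 CPM, Hist1h1a at 4.39 CPM and the testis-type Hist1h1t, which no library held above 0.29 CPM. Reads cannot be assigned with equal certainty to each of them: 22 members shared at least 50% of their 98-base windows, the length of the cDNA read, with another gene. Every 98-base window of the last 300 bases of Hist1h1e was shared, since Hist1h2be and Gm11398 overlap it on the same strand, and 63.1% of those of Hist1h2ag were. Every window of the H3 gene Hist2h3c1 was shared too, and Gm20634 overlaps it on the same strand. For Hist2h3c2 61.6% of windows were shared, but none of those in its last 300 bases. In the last 300 bases over 50% of windows were shared for further members named below. Among them were Hist1h2ai (99.0%), Hist1h3h (88.2%), Hist2h3b (86.2%), Hist1h2an (75.9%), Hist1h2ab (63.1%), Hist1h2bj (60.1%), Hist1h2ad (57.6%), Hist1h4h (55.2%) and Hist1h2bk (53.7%). The values of Hist2h3c1 and Hist1h1e below, and of members with such shares, are therefore uncertain as to gene.

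Dividing cells were marked by Top2a, a topoisomerase made in S, G2 and M phase, and neurons by Neurod6, a factor of postmitotic excitatory neurons. Cells with 1 or more Top2a UMIs numbered 37354, and cells with Neurod6 and no Top2a 73467, both in each of the 32 libraries. The 2 markers overlapped: 11476 of the Top2a-detected cells (30.7%) also had Neurod6 UMIs and are counted as dividing below. Their share of Top2a-detected cells in WT was 11.7 to 23.4% at E12.5, 41.2 to 45.2% at E14.5, 39.8 to 47.01% at E16.0 and 51.8 to 62.3% at E17.5, so the make-up of this class differed between stages. The main counts are therefore also given for Top2a-detected cells without Neurod6, a comparison added after the data had been seen. Median UMIs per cell ran from 5349 to 12442 per library in Top2a-detected cells and from 3599.5 to 8668.5 in Neurod6-detected cells, so a dividing cell of low depth can be missed. Free RNA in the droplets was not modelled, and its part in low levels was not tested.

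Most of the histone genes were higher in dividing cells, but the 4 with the highest level were higher in neurons. Of 54 members tested, 41 were higher in Top2a-detected cells, 8 were lower and 5 did not pass (edgeR's quasi-likelihood test, library as a block). Over all genes 89.3% were called, 44.6% higher and 44.7% lower. The median log2 fold was 2.57 over the members tested and 0.00 over all genes. The 8 members not tested were too low in count. With dividing cells restricted to those without Neurod6, 42 of 55 members were higher and 8 lower, against 88% of all genes called (43.9% higher, 44.1% lower; edgeR).

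Hist1h1b, a linker histone gene with no annotated sequence past its stop codon, had the largest fold. It ran from 16.5 through a median of 67.4 to 481 CPM in Top2a-detected cells and from 0.508 through 2.17 to 8.26 CPM in Neurod6-detected cells. The 2 ranges did not overlap, and the log2 fold was 4.98 ± 0.04 (SE, adjusted p = 3.54e-40, edgeR). The H2A genes Hist1h2af and Hist1h2an followed at 4.19 ± 0.10 and 3.91 ± 0.10 log2. Hist1h4i, an H4 gene with a polyadenylation signal at its annotated end, ran from 78.8 through 149 to 201 CPM in dividing cells and from 15.6 through 28.5 to 59.1 CPM in neurons. These ranges did not overlap either (log2 fold 2.25 ± 0.02, adjusted p = 3.98e-38, edgeR). Hist1h1e, Hist1h2ae, Hist1h1a, Hist1h2ag and Hist1h3c were higher in dividing cells in each of the 32 libraries, at log2 folds of 2.59, 2.84, 3.49, 3.12 and 3.48.

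Hist3h2ba went the other way in each library. In dividing cells it ran from 188 through a median of 279 to 386 CPM, and in neurons from 625 through 949.9 to 1373 CPM. The lowest neuron value lay above the highest of dividing cells, with a log2 fold of -1.78 ± 0.03 (adjusted p = 2.26e-35, edgeR). Its neighbour Hist3h2a was also lower in dividing cells in 32 of 32 libraries (-1.62 ± 0.03). Hist1h2bc (-1.26 ± 0.04) was lower in 29 and Hist1h1c (-1.22 ± 0.03) in 30 of them. Hist1h2ac (-0.51 ± 0.08), lower in 25 libraries, Hist4h4 (-0.39), Hist1h4h (-0.16) and the H3 gene Hist2h3c2 (-2.48 ± 0.14, at a median of 3.38 CPM in neurons) made up the 8. The 5 that did not pass were Hist1h2bp (0.29), Hist2h3c1 (0.07), Hist1h3d (-0.00), Hist1h4j (-0.07) and Hist1h2be (-0.08).

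Members were also split by their annotated 3′ end, as a description with no test of the difference. Of 14 members tested with a polyadenylation signal there, 5 were higher and 5 lower in dividing cells, with a median log2 fold of -0.00. Of 40 without one, 36 were higher and 3 lower, with a median of 2.88. Some of these 40 annotated transcripts end before or soon after the stem-loop, so a signal further downstream would not be seen. Hist1h2ak is annotated with 393 bases and no stem-loop, and Hist1h2ab ends 11 bases after its own. Both groups held members of either direction: Hist1h4i and Hist1h2ae carry the signal and were higher in dividing cells, while Hist1h2bc and Hist1h2ac do not and were lower. The linker histones split as well. Hist1h1a, Hist1h1b and Hist1h1e were far higher in dividing cells, Hist1h1c was lower, and Hist1h1d was nearly level (0.15 ± 0.06, adjusted p = 0.011, edgeR), being higher in 11 of 32 libraries. Without E16.0 het M2 (0.11), E17.5 WT M1 (0.12) or E17.5 het F1 (0.12) Hist1h1d did not pass.

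**Figure D1:**
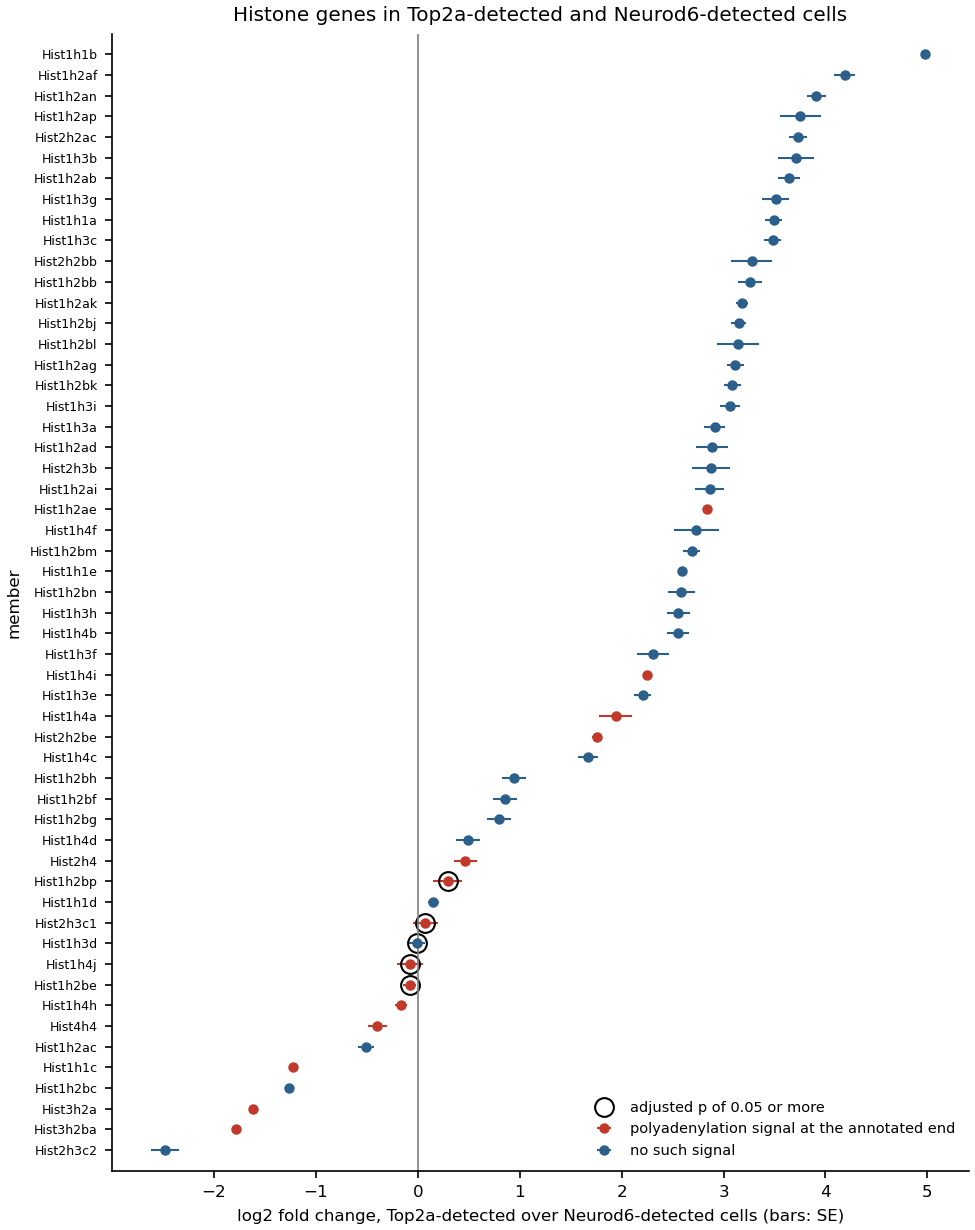
Log2 fold of Top2a-detected over Neurod6-detected cells for the 54 members tested (points, with standard error bars). Red points have a polyadenylation signal at the annotated end, blue points have none, and a black ring marks an adjusted p of 0.05 or more. Points run from -2.48 for Hist2h3c2 to 4.98 for Hist1h1b, and the red points lie on both sides of 0.

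The partners of a divergent pair often lay at different distances from 0. Hist1h2ag and Hist1h2bj had log2 folds of 3.12 and 3.15. Hist1h2ac and Hist1h2bc, which flank the last upstream sequence printed above, had -0.51 and -1.26. Hist1h2ae and Hist1h2bg had 2.84 and 0.80, Hist2h2ac and Hist2h2be 3.73 and 1.76, and Hist1h2an and Hist1h2bp 3.91 and 0.29, where Hist1h2bp did not pass (adjusted p = 0.057, edgeR). Both partners lay on the same side of 0 in 8 of 8 pairs with both genes tested, but most members lay above 0 here. In the change from E12.5 to E17.5 within dividing cells, partners lay on opposite sides of 0 in 3 of the 8 pairs: Hist1h2bl (-0.32) and Hist1h2ai (1.42), Hist1h2an (-0.45) and Hist1h2bp (0.11), and Hist1h2bf (0.83) and Hist1h2ad (-0.05).

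Against the 100872 Top2a-free cells of every kind, 46 of 56 members tested were higher in Top2a-detected cells and 7 were lower, where 85.4% of all genes were called (40.4% higher, 45% lower; edgeR). The median log2 fold was 2.06 over these members and -0.03 over all genes. Hist1h1b (4.15 ± 0.04), Hist1h2af (3.82 ± 0.09) and Hist2h2ac (3.30) led the higher members. Hist2h3c2 (-2.06), Hist3h2ba (-1.38 ± 0.02), Hist3h2a (-1.21), Hist1h2bc (-1.06), Hist1h1c (-0.98), Hist4h4 (-0.28) and Hist1h2ac (-0.28) were the 7 lower ones.

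Within the dividing cells, those with Pcna, the replication clamp that peaks around S phase, were set against those without. There were 28013 Pcna-detected and 9341 Pcna-free cells, and the former were deeper, with medians of 5812 to 12811 UMIs per cell against 4046 to 10042.5, so depth moves with this contrast and its part was not tested. Of 49 members tested, 26 were higher and 5 lower with Pcna, against 64.5% of all genes called (35.5% higher, 29% lower), and the median log2 fold was 0.26 against 0.02 over all genes (edgeR). The H1 genes Hist1h1a (1.61 ± 0.09) and Hist1h1b (1.28 ± 0.05) and the H2A gene Hist1h2af (1.27 ± 0.11) led. Hist1h1b ran from 16.9 through a median of 82.0 to 633 CPM with Pcna and from 8.29 through 34.1 to 194 CPM without it, and was higher with it in 32 of 32 libraries. Hist1h2ae (0.91), Hist1h1e (0.79) and Hist1h4i (0.48 ± 0.03) were also higher. The 5 lower ones were Hist1h2bc (-1.003 ± 0.03), Hist3h2ba (-0.72 ± 0.03), Hist3h2a (-0.65), Hist1h1c (-0.59) and Hist1h3d (-0.28), of which the first 4 were also lower in dividing cells than in neurons. Hist3h2ba was lower with Pcna in 32 of 32 libraries, at a median of 231 against 400.4 CPM. Hist1h2ac (-0.09, adjusted p = 0.133), Hist1h1d (0.11, adjusted p = 0.202) and Hist1h2ag (0.06, adjusted p = 0.387) did not pass (edgeR).

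Of 17 tested genes of histone transcription and 3′ processing, 13 were higher and 3 lower in dividing cells than in neurons, where 44.6% of all genes were higher and 44.7% lower. Slbp rose by 1.17, Npat by 0.91 and Casp8ap2, a component of histone locus bodies, by 0.73 on the log2 scale, while Lsm10 was lower (-0.39). With Pcna 13 of 16 were higher and 0 lower, where 35.5% of all genes were higher and 29% lower, and Slbp again had a log2 fold above 1 (1.22). Of 12 histone chaperone genes 10 were higher in dividing cells, among them Asf1b (4.43), Chaf1a (2.57) and Nasp (1.33), and Hira was lower (-0.16). The list of replication-independent variants was divided, 7 of 11 higher and 4 lower. H2afx (2.79) and H2afz (2.03) were among the higher, and H3f3a (-0.31) and H3f3b (-0.04) among the lower. Over all cells and libraries H3f3b averaged 3653 CPM and H2afz 790.1 CPM.

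The WT stages held different shares of dividing cells. Cells with Top2a made up 51.1 to 58.3% of WT libraries at E12.5, 16.04 to 24.98% at E14.5, 15.7 to 26.3% at E16.0 and 6.94 to 13.3% at E17.5. Marker sums of WT libraries moved too from E12.5 to E17.5. Radial glia went from 2169-2329 to 694.9-819 CPM and meninges from 50.25-92.36 to 2.64-9.29 CPM. Excitatory neurons went from 521.5-802.7 to 1857-2250 CPM and interneurons from 2.48-28.55 to 65.84-246.5 CPM. The part of these in the changes over all cells was not tested. Over all cells, 27 of 58 members tested fell and 6 rose from E12.5 to E17.5, where 67.4% of all genes were called, 34.5% higher and 32.9% lower (edgeR). The median log2 change was -0.70 for these members and 0.04 for all genes. Of 12 H3 genes 9 fell.

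Hist1h4i had 132, 139, 126 and 133 CPM in WT M1, M2, F1 and F2 at E12.5. It had 32.3, 31.8, 30.7 and 36.7 CPM at E17.5, with no overlap, and fell by 2.22 ± 0.14 on the log2 scale (adjusted p = 3.11e-14, edgeR). Its values at E14.5 (62.5 to 85.9 CPM) and E16.0 (48.7 to 78.5 CPM) lay between and overlapped each other. The H2A gene Hist1h2ag (-3.13 ± 0.46), the H2B gene Hist1h2bk (-3.05 ± 0.44) and the H3 gene Hist1h3c (-2.86 ± 0.39) fell most. Hist1h2ag went from 24.9, 32.03, 21.8 and 42.1 CPM to 2.41, 4.96, 3.34 and 5.39 CPM.

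The 6 that rose over the same interval were Hist1h2ac (1.16 ± 0.30), Hist1h4d (1.02 ± 0.34), Hist2h4 (0.99), Hist3h2a (0.90 ± 0.18), Hist1h3d (0.80) and Hist3h2ba (0.72 ± 0.14). Hist3h2ba had 448, 376, 372 and 359 CPM at E12.5 and 659, 750.5, 730.1 and 826 CPM at E17.5 in M1, M2, F1 and F2, again without overlap. At E14.5 the WT values of Hist3h2ba were 726 to 862 CPM, which overlapped those at E17.5. Hist2h4 did not pass without E12.5 WT M1 (0.97), F1 (0.89) or F2 (0.88), or without E17.5 WT M1 (0.71) or F2 (0.97). No H1 gene passed over this interval, but WT M1 at E17.5 stood far above the other WT libraries there. Without it Hist1h1a (-1.75, adjusted p = 0.00152) and Hist1h1b (-1.28, adjusted p = 0.0334) fell (edgeR), in place of -0.70 and -0.11 with it.

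Between neighbouring stages, 9 of 58 members rose and 17 fell from E12.5 to E14.5, against 53.1% of all genes called (25.4% higher, 27.8% lower; edgeR). Hist3h2a (1.51 ± 0.18), Hist1h2ac (1.38) and Hist2h3c2 (1.16) rose most, and Hist1h2an (-1.85), Hist1h2ad (-1.49) and Hist1h3g (-1.39) fell most. The count of 26 was 17 without E14.5 WT M1 and 17 without E14.5 WT M2, and Hist1h3g did not pass without either of them (-1.05 and -1.14). The share of all genes called in these fits is not given here, so the counts do not set members apart from other genes. At E14.5 sex and code moved together, and the 4 male libraries, whose code starts with rm, lay apart from the 4 female ones in the members given next. Hist1h2bc stood at 339 to 422 CPM in males and 147 to 236 CPM in females, Hist3h2a at 335 to 392.4 and 193 to 288 CPM, Hist1h2ac at 32.4 to 45.4 and 52.1 to 93.8 CPM, Hist1h4d at 11.98 to 16.1 and 24.3 to 42.7 CPM and Hist1h2ag at 5.59 to 11.99 and 14.3 to 28.01 CPM. None of these ranges overlapped, and sex and code cannot be told apart. The share of members and of all genes that lay apart in this way was not counted. Median UMIs per cell also differed, at 8408 to 8785 in the male and 6056 to 7668.5 in the female libraries, and the part of depth was not tested. From E14.5 to E16.0, 0 members rose and 6 fell, against 12.6% of all genes called (5.97% higher, 6.58% lower; edgeR). They were Hist1h2bc (-1.36 ± 0.30), Hist1h1c (-1.18), Hist1h2bp (-0.91), Hist3h2a (-0.77), Hist3h2ba (-0.69) and Hist1h4i (-0.48). Hist1h2bp passed narrowly (adjusted p = 0.0479, edgeR), and Hist1h4i did not pass without E16.0 WT M2 (-0.45) or F1 (-0.40). From E16.0 to E17.5, 4 fell and 1 rose, against 16.8% of all genes called (7.32% higher, 9.5% lower): Hist1h2bh (-1.23), Hist1h3c (-1.15), Hist2h2be (-0.89) and Hist1h4i (-0.83 ± 0.13) fell, and Hist3h2ba rose by 0.52 ± 0.14. This count of 5 was 2 without E16.0 WT M1, E16.0 WT M2 or E17.5 WT F1, 3 without E16.0 WT F2 or E17.5 WT F2, and 8 without E14.5 WT F1, whose stage is not in the contrast but shares its spread. For these fits too the share of all genes called is not given. Hist1h4i passed in each of these fits, whereas Hist3h2ba did not pass without E16.0 WT M2 (0.44) or E17.5 WT F2 (0.45).

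A fall over all cells in bulk sums cannot tell fewer dividing cells from less histone RNA per dividing cell, so the same stages were compared within each class. Within Top2a-detected WT cells, 15 of 53 members tested rose and 5 fell from E12.5 to E17.5, with 53.6% of all genes called (27.7% higher, 25.9% lower; edgeR) and a median log2 change of 0.39. Hist1h4i fell in them too, from 161 ± 7.38 CPM (mean ± SD, n = 4) at E12.5 through 177 ± 7.82 at E14.5 and 138 ± 8.12 at E16.0 to 94.3 ± 5.29 CPM at E17.5. Its log2 change was -0.93 ± 0.09 (SE; adjusted p = 2.1e-10, edgeR), and it was -0.90 and -0.94 without WT M1 and without the 4 E17.5 libraries whose code starts with p. Hist1h2ag (-1.44), Hist1h2bk (-1.43), Hist1h3h (-1.10) and Hist1h3c (-0.96) were the other 4 that fell, of which Hist1h3h did not pass without E17.5 WT M1 (-0.92) nor Hist1h3c without E17.5 WT F2 (-0.81). Since more of the class had Neurod6 at E17.5 than at E12.5, the change was also computed in Top2a-detected cells without Neurod6. There 16 of 51 members tested rose and 4 fell, against 50.2% of all genes called (25.9% higher, 24.3% lower; edgeR), and 16 of these 20 were called in the whole class as well. Hist1h4i (-0.90 ± 0.11), Hist1h2ag (-1.99), Hist1h2bk (-1.84) and Hist1h3c (-0.85) fell there too, whereas Hist1h3h (-0.81), Hist1h2af (0.80), Hist1h2bf (0.84) and Hist3h2a (0.33) did not pass. Hist1h2bc (0.73 ± 0.25, adjusted p = 0.015), Hist1h1c (0.80 ± 0.25, adjusted p = 0.00987), Hist1h1a (1.14) and Hist1h2ai (1.54) passed there but not in the whole class (edgeR). This restriction was not combined with leaving out E17.5 WT M1.

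The members with the largest rise in dividing cells rested on 1 library. Hist1h2ae rose by 2.09 ± 0.76, Hist1h1e by 1.93 ± 0.58 and Hist1h1b by 1.89 ± 0.58 on the log2 scale. Without E17.5 WT M1 the values were 0.48, 0.59 and 0.65, and without the libraries of code p they were -0.09, 0.54 and 0.49. Hist1h1d behaved likewise, at 1.05, 0.26 and -0.01. Hist1h2ae and Hist1h1d also did not pass without E12.5 WT M2 (1.88 and 0.94). The count of 20 members called was 11 without E17.5 WT M1 (7 higher, 4 lower; 48.7% of all genes) and 10 without the libraries of code p (6 higher, 4 lower; 47.1% of all genes), of which 9 were among the 20. Members whose rise was at least as large without these libraries were the H3 gene Hist2h3c1 (1.85 with them, 1.90 without WT M1 and 2.01 without code p), Hist1h2af (1.25, 1.44 and 1.39) and Hist3h2a (0.35, 0.44 and 0.46). Hist3h2a did not pass without E12.5 WT F1 (0.30) or F2 (0.29), or E17.5 WT M2 (0.29) or F2 (0.30). Hist1h4d (1.44, 0.95 and 0.83) and Hist1h3d (1.01, 0.77 and 0.78) had smaller values without them.

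In neurons more members fell than rose. In Neurod6-detected WT cells, 16 of 45 members tested fell and 3 rose from E12.5 to E17.5, against 56.6% of all genes called (30.3% higher, 26.2% lower; edgeR), and the median log2 change was -0.52. In the same cells 17 of 17 S phase genes fell (median log2 change -1.68), as did 8 of 9 G2/M genes (-1.81; edgeR). The part of dividing cells with undetected Top2a, or of free RNA, in the falls among neurons was not tested. Hist1h2bc fell by 2.11 ± 0.33 (SE), from 435 ± 157 CPM (SD, n = 4) through 365 ± 158 and 143 ± 23.8 to 107 ± 45.7 CPM. In all Top2a-detected cells the same gene did not pass (0.19 ± 0.25, adjusted p = 0.535, edgeR), and in those without Neurod6 it rose, as given above. Hist1h1c (-1.28 ± 0.27), Hist1h4i (-1.49 ± 0.13) and Hist3h2ba (-0.54 ± 0.14) fell in neurons as well. Hist3h2ba went from 1238 ± 98.8 CPM through 1037 ± 85.9 and 785 ± 71.6 to 913 ± 128 CPM there, so its rise over all cells was not seen within neurons, and within dividing cells it did not pass (0.14, adjusted p = 0.282, or -0.18, adjusted p = 0.27, in those without Neurod6; edgeR). Hist1h3c (-3.14 ± 0.47), Hist1h2ag (-2.60), Hist1h3g (-2.42) and Hist1h2bk (-2.40) fell most among neurons. Hist2h4 (2.24), Hist1h4d (1.64) and Hist1h3d (0.93) were the 3 that rose. Hist1h3d did not pass without E17.5 WT M1 (0.63), nor Hist1h3g without E12.5 WT M2 (-2.11).

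The difference between the 2 classes was itself tested. Of 54 members, 22 had a more positive change from E12.5 to E17.5 in dividing cells than in neurons and 0 a more negative one, against 43.4% of all genes called (18.8% positive, 24.6% negative), and the median difference was 0.80 (edgeR, library as a block). Without the library block 12 were called, against 23.3% of all genes. With the block, 16 of 17 S phase genes had a more positive change in dividing cells and 1 a more negative one. Of 9 G2/M genes, 9 had a more positive one (edgeR). The part of dividing cells with undetected Top2a in the class difference was not tested. The balance over all genes depended on the method. DESeq2 called 3415 genes positive and 2274 negative, where edgeR called 2716 positive and 3552 negative. Hist2h3c1 (3.17 ± 0.50), Hist2h3c2 (2.54 ± 0.64) and Hist1h2bc (2.26 ± 0.16, adjusted p = 2.39e-13) had the largest differences among called members of 1 CPM or more, where the reads of Hist2h3c1 cannot be told from those of other genes. Among the high members Hist1h1c (1.76 ± 0.14) came next. Hist3h2ba (0.63 ± 0.10) and Hist1h4i (0.50 ± 0.10) passed as well. With dividing cells without Neurod6, 18 of 55 members had a more positive change and 0 a more negative one, against 38.8% of all genes called (18.8% positive, 20% negative), and the 6 members named here passed (Hist3h2ba at 0.33 ± 0.09; edgeR).

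**Figure D2:**
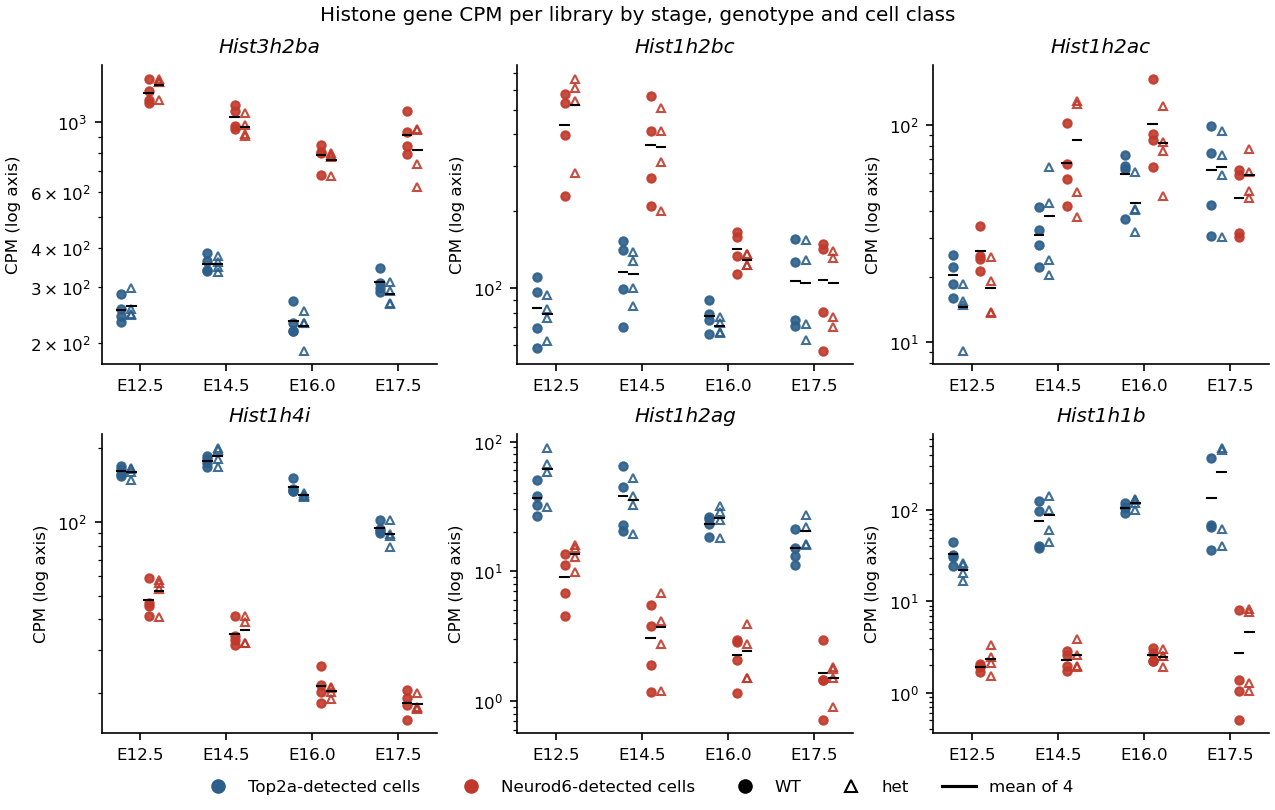
CPM per library (log axis) of 6 members by stage, with blue for Top2a-detected and red for Neurod6-detected cells, filled circles for WT, open triangles for het and a black bar for the mean of 4. Red lies above blue for Hist3h2ba and below it for Hist1h4i, Hist1h2ag and Hist1h1b at every stage, and the WT mean of Hist1h2bc in neurons goes from 435 to 107 CPM.

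Over the same interval and all WT cells, 11 of 17 genes of histone transcription and 3′ processing were lower, 0 were higher and 6 did not pass, where 32.9% of all genes were lower. Of S phase genes 17 of 17 were lower, and of chaperone genes 10 of 12 were lower and 1 higher (edgeR). Within dividing cells 7 of the 17 processing genes were lower, Ncbp1 of the cap-binding complex among them (-0.58), and 1 was higher, Npat (0.50), a share called that did not exceed the 53.6% of all genes. There 11 of 17 S phase genes were lower and 1 higher, and 4 of 9 G2/M genes were higher and 0 lower.

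Genotype was the study's main contrast. With no pairing in the fit, no member was called at any stage or averaged over stages. By edgeR's quasi-likelihood test, 0 of 58 passed at E12.5, when 0.327% of all genes did, and 0 at the 3 later stages, when 0% of all genes did. DESeq2 likewise called 0 members at each stage. At an unadjusted p under 0.05 there were 2 (Hist1h2bg and Hist1h2bp) at E12.5, 0 at E14.5, 2 (Hist1h2ad and Hist1h3e) at E16.0 and 0 at E17.5. Averaged over stages 0 passed, where 0.321% of all genes did, and 1, Hist1h2af (0.39 ± 0.19), had an unadjusted p under 0.05. A test of whether the genotype effect differed between stages called 0 members, and 0% of all genes, with 0 at an unadjusted p under 0.05.

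Averaged over stages, the het-WT log2 difference was -0.05 ± 0.07 (SE) for Hist3h2ba, higher in het in 5 of 16 pairs. It was -0.03 ± 0.06 for Hist1h4i, higher in 8 of 16 pairs, and -0.00 ± 0.15 for Hist1h2bc, also in 8 of 16. The H1 genes stood at 0.14 ± 0.24 for Hist1h1a, 0.20 ± 0.27 for Hist1h1b, -0.11 ± 0.13 for Hist1h1c, 0.05 ± 0.17 for Hist1h1d and 0.13 ± 0.29 for Hist1h1e. Hist1h2an, an H2A gene with a mean difference of 0.53 ± 0.27, was higher in het in 13 of 16 pairs but did not pass (adjusted p = 0.754, edgeR). Within Top2a-free cells Hist1h2bh was higher in het in 14 of 16 pairs and Hist3h2ba lower in 13. Within Neurod6-detected cells Hist1h2ab was higher in het in 13 of 16 pairs. These did not pass either. With Hist1h2an they were the most one-sided counts among the 62 members and all sets of cells, picked after the values were seen. The share of all genes with such counts was not computed. The 62 members summed to 1170 ± 123 CPM in WT and 1220 ± 72.7 CPM in het (SD, n = 4) at the first age, E12.5. The sums were 1897 ± 203 and 1857 ± 142 CPM at E14.5. At E16.0 WT had 1387 ± 27.6 and het 1300.0 ± 75.2 CPM, and E17.5 had 1510 ± 200.5 and 1557 ± 225 CPM. Pair by pair, WT had the higher sum in 1 of 4 pairs at E12.5, 3 of 4 at E14.5, 4 of 4 at E16.0 and 2 of 4 at E17.5. The E16.0 sums were 1426, 1362, 1383 and 1378 CPM in WT and 1190, 1312, 1352 and 1346 CPM in het, in M1, M2, F1 and F2. No test of the sums was made.

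Small values lay mostly on one side within a stage. The median log2 difference of the 58 members was 0.14 at E12.5, 0.18 at E14.5, -0.34 at E16.0 and 0.22 at E17.5, with 41, 48, 9 and 41 members above 0. Over all genes the medians were -0.027, -0.003, 0.002 and 0.015, and the share of genes above 0 was not counted. Members share their libraries, so these counts are a description, and the test between stages given above called 0 members. Over the mean of stages 33 were above 0 and 25 below, with a median of 0.05 (-0.002 over all genes). Within dividing cells 0 of 53 members passed averaged over stages (0.946% of all genes did; 3 members at an unadjusted p under 0.05), within Top2a-free cells 0 of 53 (0.185%; 2 members) and within Neurod6-detected cells 0 of 45 (0.142%; 1 member), and DESeq2 called 0 in each. The genotype effect did not pass as different between dividing cells and neurons for any of 54 members (0% of all genes; 1 member at an unadjusted p under 0.05; DESeq2 0).

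At E12.5 the result depended on the fit. With each matched pair as a block, 3 members were called higher in het, where 13.6% of all genes were called (edgeR). They were the H3 gene Hist2h3b (0.86 ± 0.24, adjusted p = 0.0262), the H4 gene Hist1h4h (0.54 ± 0.16, adjusted p = 0.0308) and Hist1h2bc (0.28 ± 0.09, adjusted p = 0.049). Hist2h3b had 1.56, 0.603, 2.08 and 1.70 CPM in WT M1, M2, F1 and F2 and 3.25, 0.544, 3.51 and 3.71 CPM in het. Hist1h4h had 6.10, 3.85, 6.47 and 5.33 CPM in WT and 8.46, 3.40, 10.5 and 9.24 CPM in het. For both genes het was higher in M1, F1 and F2 and lower in M2, and the reads of both are uncertain as to gene, as given above. Hist1h2bc had 208, 93.5, 171 and 123 CPM in WT and 193.5, 109, 212 and 158 CPM in het, with M1 as the exception. Without the library E12.5 het M2, and with no block, 3 members were called higher, Hist2h3b (1.34, adjusted p = 0.0445), Hist1h2bp (0.91, adjusted p = 0.0341) and Hist1h2bg (0.85, adjusted p = 0.0139), where 9.19% of all genes were called (edgeR). Median UMIs per cell at E12.5 ran from 8762 to 10677 in WT and from 4166 to 10727 in het libraries and were lower in het in 3 of 4 pairs, and 35.3 to 58.5% of het cells had Top2a. The part of depth and of the share of dividing cells in these calls was not tested.

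**Figure D3:**
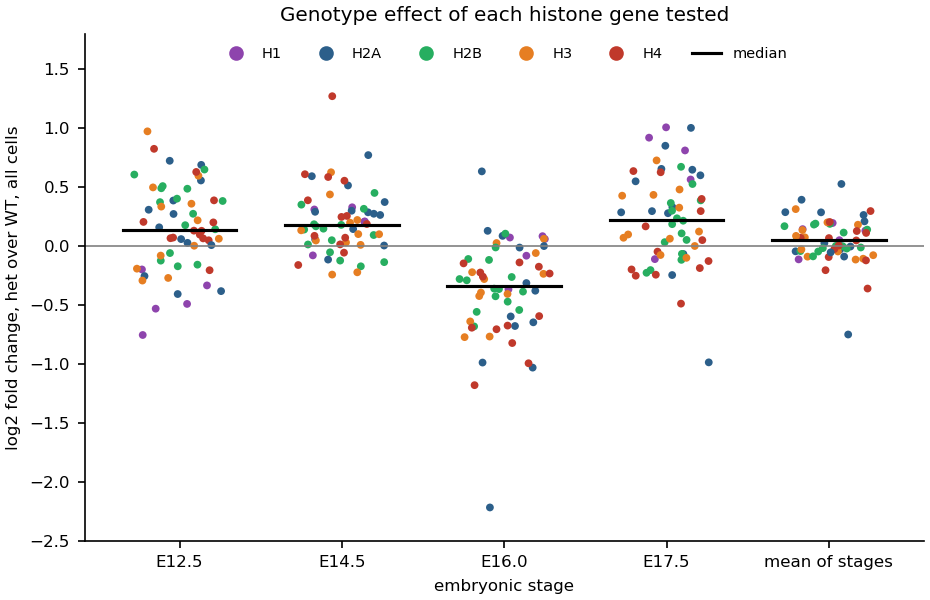
Log2 difference of het from WT for the 58 members tested at each stage and for the mean of stages, coloured by histone family, with a black bar for the median. The medians are 0.14, 0.18, -0.34, 0.22 and 0.05, and 0 of the 58 points in each column passed the test. The lowest point, at E16.0, is Hist1h2ah, which no library held above 0.47 CPM.

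Averaged over stages, 0 genes of the lists of histone mRNA processing, variants, chaperones, S phase and G2/M differed between genotypes (edgeR). Depth limits the low members, of which 4 (Hist1h1t, Hist1h2ao, Hist2h2aa2 and Hist2h2ab) could not be tested at all.

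At E17.5, 3 of 8 libraries had high Hist1h1e. Its level over all cells was 109.7 CPM in WT M1, 136.6 CPM in het M1 and 159.6 CPM in het F1. In WT M2, F1 and F2 it was 11.5, 13.2 and 22.8 CPM, and in het M2 and F2 13.1 and 16.6 CPM. The lowest of the 3 was 4.82 times the highest of the other 5. Of the 3, 1 was WT and 2 were het, and of the other 5, 3 were WT and 2 het. The label code starts with p in the 3 and in WT F1, and in none of the other 4. The part of genotype or code in this split was not tested.

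Hist1h1e, Hist1h2ae and Hist1h1b were high in the same 3 libraries in both cell classes. In dividing cells Hist1h1e ran from 375 to 527 CPM in the 3 and from 36.7 to 62.8 CPM in the other 5, and in neurons from 56.0 to 86.8 and from 5.37 to 9.37 CPM. Hist1h2ae had 703 to 935 against 53.2 to 149 CPM in dividing cells and 65.7 to 80.1 against 5.004 to 14.99 CPM in neurons. Hist1h1b had 373 to 481 against 36.2 to 69.4 CPM in dividing cells, and only 7.72 to 8.26 against 0.508 to 1.38 CPM in neurons. Hist1h1a (47.4 to 64.1 against 5.402 to 9.12 CPM), Hist2h2ac (35.3 to 65.3 against 3.81 to 10.7 CPM), Hist1h1d (30.6 to 35.8 against 5.21 to 11.1 CPM) and Hist1h4d (85.0 to 137.5 against 24.6 to 37.8 CPM) were also apart in dividing cells. Hist1h1c differed less, at no more than 106.3 against no more than 67.8 CPM in dividing cells, without overlap, and at 93.0 to 105.6 against 47.3 to 90.03 CPM in neurons.

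Hist1h4i and Hist3h2ba were not higher in the 3 libraries. In dividing cells Hist1h4i had 78.8 to 90.0 CPM in the 3 libraries and 87.6 to 101.9 CPM in the other 5. Hist3h2ba had 265 to 289.8 against 292 to 345 CPM, and was lower in each of the 3. Hist1h2bc was higher in each of the 3, at 129 to 156 against 62.5 to 126 CPM. Over all cells 19 of 62 members had the same 3 libraries highest. That share is close to the 30.01% of 10509 genes with a mean of 5 CPM or more at E17.5. In dividing cells 18 members and in neurons 17 did so, with no share of all genes computed in either class. Over all cells, 10 of the 18 members with a mean of 5 CPM or more (55.6%) did so, against 30.01% of the 10509 genes. The third of the 3 libraries reached 2 times the fourth in 99 of these genes, and 5 of the 99 were members: Hist1h1e, Hist1h2ae, Hist1h1b, Hist1h1a and Hist1h1d. These libraries were picked by the level of Hist1h1e, so the shares are a description with no test.

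Genes that are no histones also split the libraries in this way. By the ratio of the third to the fourth library, Hist1h2ae (5.07), Hist1h1a (5.01), Hist1h1e (4.82) and Hist1h1b (4.12) were followed by Aff2 (3.93) and Il1rapl1 (3.60), and Hist1h1d stood at 2.36. Aff2 had 23.0 to 26.7 CPM in the 3 libraries and 2.36 to 5.84 CPM in the other 5. The 10 genes most like Hist1h1e over the 8 libraries (Pearson r of log2 CPM between 0.995 and 0.997, described over genes of 5 CPM or more and with no test) were Wwp1, Zfp84, Dgki, Usp34, Cep95, Dnajc13, Lpin2, Zfp955b, Sclt1 and Nbeal1, with 0 members among them. Wwp1 had 15.7 to 18.2 CPM in the 3 libraries and 8.32 to 10.1 CPM in the other 5, where Hist1h1e had 109.7 to 159.6 and 11.5 to 22.8 CPM. The nuclear RNA Malat1 stood at 30640 to 35070 CPM in the 3 libraries and at 14550 to 23120 CPM in the other 5. The highest of the 5 was WT F1, whose code also starts with p, and the rest had at most 15710 CPM. The sum of 8 stress and immediate early genes was 803 to 1017 against 303 to 608 CPM, and that of replication-independent histone variants 7430 to 8102 against 8591 to 10730 CPM. Genes of histone transcription and histone mRNA 3′ processing summed to 679.9 to 692 against 556 to 603 CPM. Excitatory neuron markers summed to 2250 to 2308 against 1802 to 2137 CPM, and interneuron markers to 61.1 to 66.3 against 71.7 to 274 CPM. WT F1 was the nearest of the 5 for the stress genes too, at 608 CPM, where the rest had at most 345 CPM. It had 8591 CPM of the variants (the rest 9967 or more) and 2137 CPM of excitatory markers (the rest 2028 or less). For interneuron markers it had 71.7 CPM (the rest 109.6 or more), while its Hist1h1e was only 13.2 CPM. The share of Top2a-detected cells (9.25 to 10.8% against 6.94 to 13.3%) and the median UMIs per cell (4662 to 5126 against 4017 to 5484) overlapped. The part of any of these in the histone values was not tested. The sum of all 62 members was 1735 to 1790 CPM in the 3 libraries and 1319 to 1497 CPM in the other 5, so the 3 also set the spread of the E17.5 groups.

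**Figure D4:**
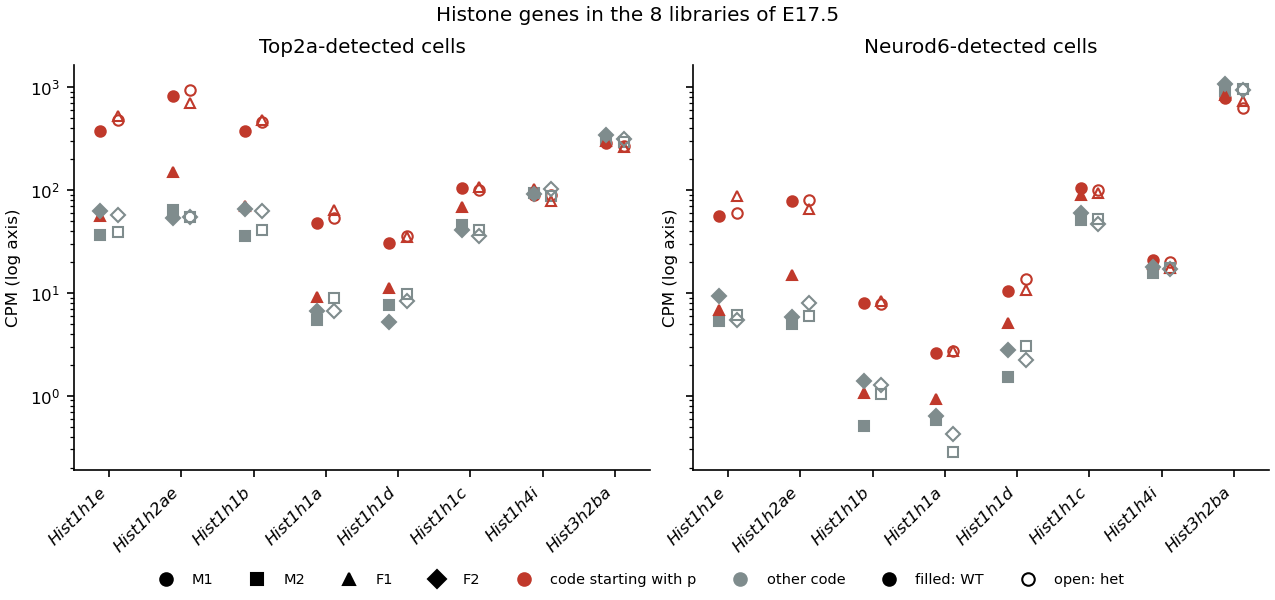
CPM (log axis) of 8 members in the 8 E17.5 libraries, in Top2a-detected (left) and Neurod6-detected cells (right), with red for libraries whose code starts with p, shapes for the embryo, and filled symbols for WT. Of the 4 red libraries 3 lie apart from the other 5 libraries for the H1 genes Hist1h1e, Hist1h1b, Hist1h1a and Hist1h1d and for Hist1h2ae, with a smaller distance for Hist1h1c, while Hist1h4i and Hist3h2ba show no such rise.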

How the data were processed

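Dissociated cells of 32 dorsal telencephalon libraries were profiled with 10x Genomics 3′ v2 chemistry, per the labels' protocols. The authors deposited, for each library, raw UMI counts per gene and barcode, which were not normalized. The submitters' processing notes name STAR 2.7.9a, STARsolo, Cell Ranger and build mm10. Whether counting used strand, and how reads that map to several genes were treated, is not given in the sources used here, so near-identical and overlapping histone genes are uncertain.

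Of 145082 barcodes, 143697 had at least 1000 UMIs and 500 genes with no more than 10% of UMIs mitochondrial, and were retained. Doublets were scored against 0.5 simulated doublets per cell (2000 variable genes, 30 components, 20 neighbours) and removed at an assumed 0.8% per 1000 cells, which took 5471 cells. Counts were summed per library over all cells and over cells with or without Top2a, Neurod6 and Pcna UMIs, and CPM are per 1000000 UMIs of the same sum. Each sum of 4 libraries in a group comes from 4 embryos, and cells were not used as replicates.

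Sums were tested with edgeR 4.0.16 in R 4.3.3 (quasi-likelihood test, TMM, filterByExpr, Benjamini-Hochberg adjustment over all genes tested, calls at an adjusted p under 0.05). All 32 libraries entered each fit with 8 group means. Comparisons of cell classes had the library as a block. The SE printed with an edgeR log2 fold was computed as its absolute value divided by the square root of the test's F statistic. Alternatives were DESeq2 1.42.0, no filter on low counts, doublets kept, each library left out, the matched pair as a block, no library block, Top2a-detected set at 2 UMIs, and CPM with TMM library sizes. Leaving out the 4 E17.5 libraries with a code starting with p, and restricting Top2a-detected cells to those without Neurod6 UMIs, were chosen after the data had been seen. The pairs come from the labels (litter and sex): deviations from group means correlated between pair members in 16 of 16 pairs (r from 0.171 to 0.861 over 10292 genes), and 13 of 16 correlated best with their own partner.

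Members, gene lists and tests were chosen with earlier results of these data known. Named are the 12 members with the highest mean CPM, the H1 genes, members called between genotypes in any fit, and for each stage and class contrast the 3 called members of 1 CPM or more with the largest change in each direction. Other members are named where a count or a pair needs them, chosen after their values were seen. On simulated counts with a dispersion of 0.02 in every gene, 100% of 200 genes changed by 2-fold were recovered both in the genotype comparison averaged over stages (3.38% false calls, 15344 genes) and in the comparison of dividing cells with neurons (4.76% false calls, 13623 genes). The changed genes were drawn only from those above a minimum mean count. Smaller changes, lower counts, other dispersions and the tests within a stage were not simulated. The recovery therefore does not describe members with a wider spread or fewer counts. Sequences came from GENCODE M21 transcripts (GRCm38) and RefSeq promoters (GRCm38.p6). Python 3.11.15, pandas 2.3.3, numpy 2.4.6, scipy 1.17.1 and matplotlib 3.10.9 were used.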

Additional observations from a re-analysis of the deposited data

Results flagged for a closer look

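Each group of 4 libraries was checked for a library far from the other 3, over 120 combinations of a named member and a group, and 5 met the limit. Chance gives about 1 in 20 groups, for independent groups, which combinations that share libraries are not. The 5 of 120 did not exceed 1 in 20. Of the 5, 4 were the same library, WT M1 at E17.5, already picked above by its level of Hist1h1e. These 4 restate that split and are no separate observation. WT M1 had 197 CPM of Hist1h2ae (16.3 to 31.9 CPM in the other 3 WT libraries), 109.7 CPM of Hist1h1e (11.5 to 22.8 CPM), 68.3 CPM of Hist1h1b (6.90 to 16.6 CPM) and 9.81 CPM of Hist1h1a (1.51 to 1.94 CPM). The fifth was Hist1h4i in het M1 at E14.5, at 62.1 CPM, where the other 3 het libraries had 84.6 to 87.8 CPM and the matched WT M1 had 62.5 CPM.

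For 3 named members the change from E12.5 to E17.5 differed most between dividing cells and neurons, by edgeR's test of the difference. It was more positive in dividing cells by 2.26 on the log2 scale for Hist1h2bc, by 2.54 for Hist2h3c2 and by 3.17 for Hist2h3c1, whose reads cannot be told from those of other genes.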

How the results depend on the processing

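Of 9990 recomputed values of members that passed a test, 9659 kept their direction and their side of the threshold, 328 were no longer past it, and 3 changed sign. These were Hist1h1d (-0.013) and Hist1h2ae (-0.092) from E12.5 to E17.5 in dividing cells without the libraries of code p, and Hist1h3c (-0.031) with against without Pcna when Top2a-detected meant 2 UMIs. The cause was not tested.

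With the matched pair as a replicate block, 3 members were called at E12.5 in place of 0, and the pairing changed no other count of members between genotypes by over 1.5 times. Leaving out each library in turn gave 0 to 3 members at E12.5 (het against WT), 17 to 37 from E12.5 to E14.5, 2 to 8 from E16.0 to E17.5 and 11 to 24 from E12.5 to E17.5 in dividing cells. Without the libraries of code p the last count was 10. For most fits with a library left out the share of all genes called is not given, so these ranges do not set members apart from other genes. With no replicate block 12 members differed between classes in their stage change. The cause of these moves was not tested. Over all genes, DESeq2 called 688 at E12.5 where edgeR called 52, and 116 against 51 averaged over stages, though 0 members in either. Stage contrasts had no value under the pair block, since pairs lie within stages, nor had Top2a-free and Neurod6-detected cells at 2 Top2a UMIs. Members under about 1 CPM rest on few UMIs per library, so a difference there may not be detectable at this depth.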
